A study of Mus musculus with 18 samples.

Results

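Small nucleolar RNA (snoRNA) genes were followed in the lacrimal gland (LG), the gland that makes the watery part of tears. Members were the genes whose symbol began with Snora or Snord followed by a digit and whose read counts summed to at least 50 over all 18 mice. This rule kept 52 of the 139 symbols of that form, among 54232 genes in the table: 35 box C/D (Snord) and 17 H/ACA (Snora) genes. The members were chosen by their summed count, so their abundance is a description and was not tested. Among the members, those just above the line were Snora36b (52 counts) and Snora34 (58 counts), and the symbols just below it were Snora5c (41 counts) and Snord111 (40 counts).

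RNA-seq of whole LGs was compared between male NOD.B10Sn-H2b/J (NOD.H-2b) and male BALB/cJ (BALB/c) mice at 2, 4 and 6 months (2M, 4M, 6M), with 3 mice in each of 6 groups and 1 library for each mouse. NOD.H-2b is an inbred strain that develops spontaneous inflammation of the LG and is used as a model of Sjögren's syndrome, and it carries the H2b haplotype in place of the NOD one. No treatment or transgene was involved, and BALB/c is a separate inbred strain rather than a littermate control, so disease and genetic background cannot be told apart. Markers of the labelled tissue were looked up: 12 of the 14 lacrimal secretory genes listed were found in the table, as were all 20 epithelial genes. None of those found was at 0 throughout. The same held for the listed muscle, adipocyte and erythroid genes, so these counts do not tell tissues apart.

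snoRNAs are short nuclear RNAs that mostly guide chemical modification of ribosomal RNA. Box C/D snoRNAs, named for their box C and box D motifs, guide 2'-O-methylation together with fibrillarin (Fbl), and H/ACA snoRNAs, which end in an ACA box, guide pseudouridylation together with dyskerin (Dkc1). In mammals most are cut from the introns of host genes, many of which encode ribosomal proteins, and a few such as U8 (Snord118) and U17 (Snora73) act in cleavage of the ribosomal RNA precursor. Since ribosomes are made in every cell, snoRNAs are found in all tissues, the LG included.

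The sequences of the genes on which the results turn are given first, since length, motif and near-identity bear on how reads could be assigned to them. They were taken from GENCODE M21 transcripts (GRCm38) and are written 5' to 3' on the transcribed strand. Capitals mark box C (TGATGA, searched in the first 20 bases) and box D (CTGA, searched in the last 20 bases) in box C/D genes, and the ACA of the last 8 bases in H/ACA genes. For Snora73a alone, capitals mark the 7 of 205 bases at which it differed from Snora73b, the closest pair among the members (96.6% identity). The H/ACA genes were Snora73b at chr4:132352322-132352526 (minus strand), Snora73a at chr4:132352775-132352979 (minus), Snora23 at chr7:110046364-110046547 (plus), Snora78 at chr17:24719676-24719803 (minus) and Snora57 at chr19:8888538-8888685 (minus).
Snora73b: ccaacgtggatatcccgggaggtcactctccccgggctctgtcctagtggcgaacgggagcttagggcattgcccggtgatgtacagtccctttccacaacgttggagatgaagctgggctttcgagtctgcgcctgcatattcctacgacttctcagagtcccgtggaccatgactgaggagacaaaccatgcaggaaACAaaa
Snora73a: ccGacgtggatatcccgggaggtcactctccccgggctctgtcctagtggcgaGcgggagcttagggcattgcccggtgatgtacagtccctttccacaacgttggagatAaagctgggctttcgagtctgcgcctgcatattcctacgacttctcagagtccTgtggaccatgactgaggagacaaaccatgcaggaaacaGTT
Snora23: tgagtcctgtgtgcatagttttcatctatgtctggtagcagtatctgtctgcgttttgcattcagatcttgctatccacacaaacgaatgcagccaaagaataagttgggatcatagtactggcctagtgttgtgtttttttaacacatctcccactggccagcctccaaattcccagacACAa
Snora78: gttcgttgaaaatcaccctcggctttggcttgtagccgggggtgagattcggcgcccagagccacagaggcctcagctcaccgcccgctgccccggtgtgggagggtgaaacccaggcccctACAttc
Snora57: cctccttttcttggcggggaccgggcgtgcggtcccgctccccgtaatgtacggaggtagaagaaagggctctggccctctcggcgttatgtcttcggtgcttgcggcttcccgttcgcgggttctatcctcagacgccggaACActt
The box C/D genes were Snord17 at chr2:144265979-144266216 (minus strand), Snord15a at chr7:99482785-99482932 (minus), Snord118 at chr11:69073427-69073561 (plus) and Snord49a at chr11:62603450-62603521 (plus).
Snord17: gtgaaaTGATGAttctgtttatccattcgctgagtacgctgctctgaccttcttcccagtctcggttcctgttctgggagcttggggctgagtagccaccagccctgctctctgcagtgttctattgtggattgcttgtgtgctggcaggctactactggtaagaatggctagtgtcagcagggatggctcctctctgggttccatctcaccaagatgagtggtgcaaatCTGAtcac
Snord15a: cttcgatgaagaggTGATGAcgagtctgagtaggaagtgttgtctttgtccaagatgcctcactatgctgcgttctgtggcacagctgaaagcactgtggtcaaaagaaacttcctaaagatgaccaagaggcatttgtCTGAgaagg
Snord118: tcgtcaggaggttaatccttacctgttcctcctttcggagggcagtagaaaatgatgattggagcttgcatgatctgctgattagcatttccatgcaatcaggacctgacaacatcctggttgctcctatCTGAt
Snord49a: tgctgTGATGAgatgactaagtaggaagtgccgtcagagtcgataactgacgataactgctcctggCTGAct

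Motif matches were counted in each class. Both box C and box D were found in 20 of 35 box C/D members (57.1%), in 0 of 17 H/ACA members and in 242 of 1369 other snoRNA entries of the annotation (17.7%). Snord118 held box D but no exact box C in that window. The terminal ACA was found in 17 of 17 H/ACA members, 5 of 35 box C/D members and 48.8% of the other entries. On the opposite strand, no member of either class held both box C and box D, while the ACA was found in 11 box C/D members and 1 H/ACA member. These are matches of letters in a window and nothing more was read from them.

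Most snoRNA symbols were not counted at all, and this limits every statement on absent genes. Of the 139 symbols, 77 were listed at 0 in every mouse and 10 more had between 1 and 49 counts. In the annotation, 56 of the 77 at 0 (72.7%) overlapped an exon of another gene on the same strand, against 5 of 10 in the middle class. Among the 52 members 2 did (3.85%): Snord66 in Eif4g1 and Snora73a in Snhg3. Snora43, counted in the 56, had no host gene and overlapped only another snoRNA entry of the same name. Of the 21 others at 0, 18 were copies of imprinted Snord116, which lie in Snhg14 introns, and the rest were Snord7, Snord85 and Snora35 (named after their values were seen). The 4 Snord14 genes were also at 0. Snord14c, Snord14d and Snord14e overlap exons of Hspa8, which itself had between 2507 and 15207 counts in each mouse, and Snord14a overlaps an exon of Rps13. How reads shared between a snoRNA and a host exon were treated is not given in the sources used here, so a value of 0 was not read as absence of the RNA. Imprinted Snord64 was at 0 as well, and no symbol for Snord3 (U3) or Snord115 fitted the pattern.

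**Figure D1:**
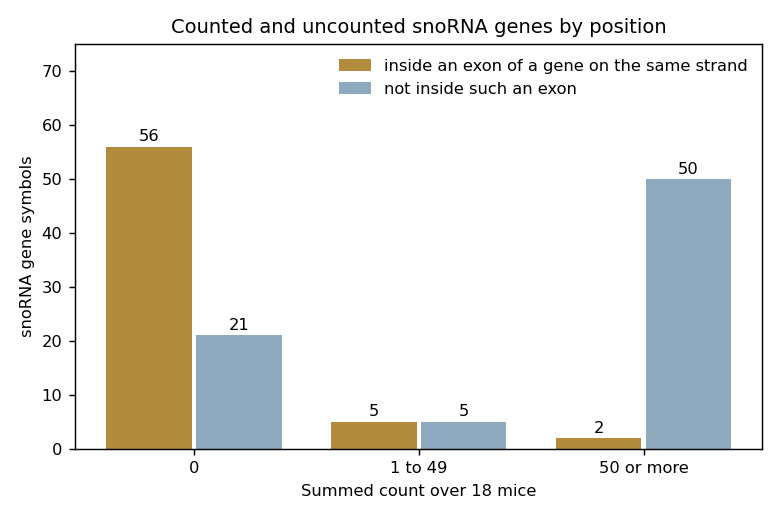
The bars give the number of snoRNA gene symbols (y axis) by summed count over 18 mice (x axis), split by whether the gene overlaps an annotated exon of another gene on the same strand. In the class at 0, 56 symbols overlap such an exon and 21 do not, whereas among the 52 members 2 do and 50 do not.

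The depth behind these genes was small. Libraries held between 49480781 and 67138830 counts, apart from BALB/c 6M replicate 1 with 103936830, yet all members together held 72576 counts, or 0.00673% of all counts. Snora73b alone took 42969 of them (59.2%), and with Snord17 (13906), Snora23 (2429) and Snord15a (1786) it made 84.2%. The other 48 members had between 52 and 640 counts over all 18 mice, with a median of 190. At that depth a member has about 10 counts in a mouse, and 28 of 52 members averaged at least 10. Differences in those genes were often not detectable.

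Per length, Snora73b and Snord17 stood well above the other members. Levels are given in CPM, the read counts scaled to the library size after adjustment by the trimmed mean of M-values. On the scale of CPM per 100 bases, the median level was 0.222 for box C/D and 0.205 for H/ACA genes. The highest levels per 100 bases were 19.5 CPM for Snora73b, 5.35 for Snord17, 1.23 for Snora23 and 1.13 for Snord15a. The rest ran from 0.0371 (Snora36b) to 0.656 (Snord104). Snora73a, a near copy of Snora73b, had only 0.0377 CPM per 100 bases. With 7 differences in 205 bases, and an unstated treatment of reads that align to several places, the division of counts between the 2 copies is uncertain. The genes measured between 64 and 238 bases, with medians of 81 for box C/D and 132 for H/ACA, and 4 members were over 180 bases (Snord17, both Snora73 genes and Snora23). Over all 52 genes, Spearman's rho between length and level per 100 bases was -0.13, a description over genes that share the same libraries. How well fragments shorter than the reads are kept in such libraries was not tested.

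**Figure D2:**
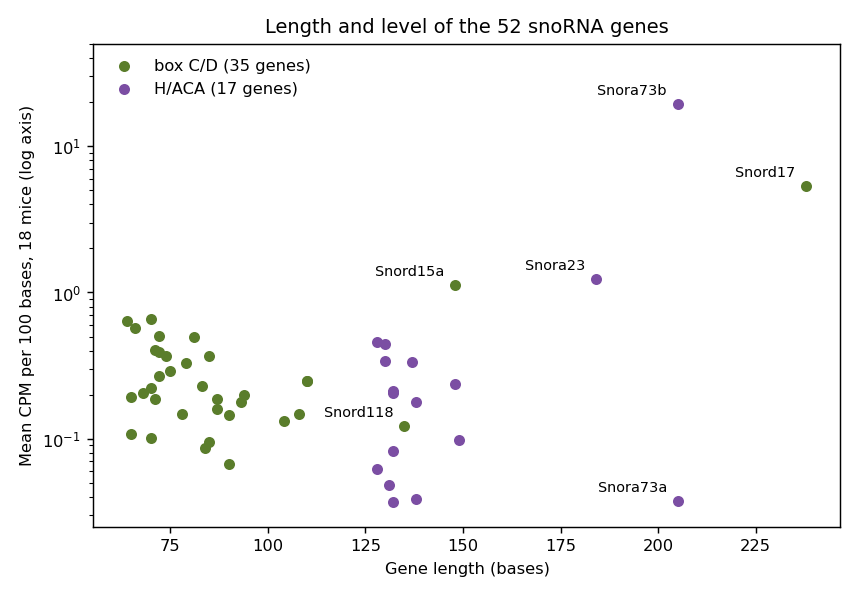
Each point is 1 of the 52 snoRNA genes, with gene length in bases on the x axis and mean CPM per 100 bases over 18 mice on a log y axis, coloured by class. Snora73b and Snord17 lie above 5 CPM per 100 bases, while Snora73a, of the same length as Snora73b, lies at 0.0377.

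The summed level of all 52 members was lower in NOD.H-2b at 2M and not at the later ages. In the 2M BALB/c mice it was 65.2, 55.3 and 51.7 CPM, and in the 2M NOD.H-2b mice 44.8, 41.7 and 44.0 CPM, with no overlap. At 4M the BALB/c sums were 83.4 ± 6.26 CPM (SD, n = 3) and those of NOD.H-2b 84.7 ± 4.07, and the ranges overlapped. At 6M the BALB/c sums were 60.1 ± 1.35 CPM and those of NOD.H-2b 75.2 ± 5.95, and they did not overlap, with NOD.H-2b the higher strain. These sums are mostly Snora73b and Snord17. Without the 4 highest genes, the other 48 summed, in BALB/c against NOD.H-2b, to 10.8 ± 0.211 and 10.1 ± 0.451 CPM at 2M, 9.63 ± 1.02 and 12.8 ± 0.283 at 4M, and 9.13 ± 0.727 and 11.3 ± 1.44 at 6M. In this remainder the NOD.H-2b mice were below all BALB/c mice at 2M (9.67 to 10.6 against 10.6 to 11.0 CPM, the nearest mice being 10.57 and 10.58) and above them all at 4M, whereas at 6M the lowest NOD.H-2b mouse (9.77 CPM) was below the highest BALB/c mouse (9.96 CPM). No test was run on these sums. In whole glands, fewer cells of a type and less RNA per cell cannot be told apart.

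The cell mixture of the gland changed across the same samples. The summed level of 10 B cell markers was between 0.582 and 4.85 CPM over the 9 BALB/c mice, and in NOD.H-2b it ranged from 4.54 to 41.3 CPM at 2M, 187 to 409 at 4M and 281 to 560 at 6M. That of 10 T cell markers was between 0.441 and 6.71 CPM in BALB/c, and 10.8 to 40.3, 82.2 to 149 and 94.1 to 131 in NOD.H-2b at the 3 ages. The 20 epithelial genes summed to between 2219 and 2476 CPM in BALB/c, and to 2108 to 2383, 1589 to 1972 and 1351 to 1653 in NOD.H-2b. At 2M, edgeR's strain test (adjusted p under 0.05) put 10 epithelial genes above their BALB/c level and 5 below it. For the secretory genes the same test gave 3 and 5. The secretory sums at 2M were 123241 to 131122 CPM in BALB/c and 90288.5 to 98224.8 in NOD.H-2b, without overlap. Their ranges overlapped at 4M (112985 to 150677 against 103598 to 124777) but not at 6M (139174 to 149215 against 61038 to 87226). No gene found from these lists was at 0 throughout. The part of this shift in the snoRNA values was not tested.

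At 2M, the strain comparison called 1 of 32 tested members, Snord15a, lower in NOD.H-2b. A gene is called here when the Benjamini-Hochberg adjusted p (FDR) of edgeR's quasi-likelihood test over all tested genes was under 0.05 and the change was at least 2-fold, and over all genes 3.76% were called lower and 12.0% higher at this age. The other 20 members had too few counts for the test. Snord15a is a box C/D gene in an intron of Rps3, which encodes a ribosomal protein. Its levels were 2.47, 1.60 and 2.47 CPM in BALB/c and 0.953, 0.548 and 1.12 CPM in NOD.H-2b. The groups did not overlap, and Snord15a was 2.42-fold lower in NOD.H-2b (log2 -1.28, SE 0.29, FDR 0.00424). Averaged over the 3 ages it was also lower, with a log2 difference of -0.79 (SE 0.15, FDR 0.000112), while at 4M and 6M alone it did not pass (FDR 0.103 and 0.0862).

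The 2 most abundant snoRNAs were lower in NOD.H-2b at 2M by less than 2-fold. Snora73b, an H/ACA gene in introns of Rcc1 and Snhg3, was at 41.0, 34.5 and 30.4 CPM in BALB/c and at 26.9, 25.2 and 26.9 CPM in NOD.H-2b. All 3 NOD.H-2b mice were below all 3 BALB/c mice (log2 -0.38, SE 0.10, FDR 0.0131). Snord17, a box C/D gene in an intron of Snx5, was at 8.96, 7.05 and 7.32 CPM in BALB/c and 5.42, 5.48 and 5.02 CPM in NOD.H-2b. Again the groups were apart (log2 -0.51, SE 0.11, FDR 0.00413). With Snord15a these were the 3 members under an FDR of 0.05 at any fold change, where 39.8% of all genes were.

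At 4M, 2 of 31 tested members were called, both H/ACA and both higher in NOD.H-2b, where 15.6% of all genes were called higher. Snora78 lies in an intron of Snhg9, a non-coding host gene. Its levels were 0.276, 0.386 and 0.567 CPM in BALB/c and 1.07, 0.973 and 1.32 CPM in NOD.H-2b, and the groups did not overlap. It was 2.71-fold higher (log2 1.44, SE 0.33, FDR 0.00624). Snora57, which had no host gene in the annotation, was at 0.258, 0.142 and 0.298 CPM in BALB/c and 0.575, 0.773 and 0.661 CPM in NOD.H-2b. All NOD.H-2b mice were above all BALB/c mice, and the difference was 2.83-fold (log2 1.50, SE 0.38, FDR 0.00951). The low-count filter asks for 3 mice at about 10 counts, a level that 2 of the BALB/c and 3 of the NOD.H-2b mice reached for Snora57, so it was tested through the strain in which it was high. Snord17 was now higher in NOD.H-2b (log2 0.47, SE 0.12, FDR 0.0119), though not at FDR 0.05 without BALB/c replicate 1 (0.36, FDR 0.0581) or replicate 2 (0.43, FDR 0.0552). Snora73b did not pass (-0.18, FDR 0.0995), but did without NOD.H-2b replicate 3 (-0.25, FDR 0.0397).

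At 6M, 4 of 26 tested members were called, all higher in NOD.H-2b, where 18.8% of all genes were called higher. Snord17 was at 10.2, 11.2 and 9.31 CPM in BALB/c and 22.1, 18.5 and 20.6 CPM in NOD.H-2b. The strains were well apart, with a 2.04-fold difference (log2 1.03, SE 0.10, FDR 2.55e-05) that lay at the fold line: it was 0.95 without BALB/c replicate 3, 0.98 without NOD.H-2b replicate 1 and 0.99 with upper-quartile scaling or with all 18 mice in a single fit, with FDR under 0.05 in each. Snora78 was at 0.311, 0.192 and 0.421 CPM in BALB/c and 0.980, 0.578 and 0.982 CPM in NOD.H-2b, 2.82-fold higher (log2 1.50, SE 0.37, FDR 0.00709). The filter's level was reached for Snora78 by 2 of the BALB/c mice and 3 of the NOD.H-2b mice. At this age it was thus tested through the strain in which it was high. Snord49a, a box C/D gene in an intron of the non-coding gene 2410006H16Rik, was at 0.129, 0.128 and 0.187 CPM in BALB/c and 0.497, 0.298 and 0.473 CPM in NOD.H-2b. These groups did not overlap either, and the difference was 2.97-fold (log2 1.57, SE 0.40, FDR 0.00783). No BALB/c mouse reached the filter's level for Snord49a, so it was tested only through the NOD.H-2b mice, in which it was high. Snora23, an H/ACA gene in an intron of Ipo7, which encodes a nuclear import receptor, passed the FDR at 1.65-fold (log2 0.73, SE 0.18, FDR 0.00773).

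Snord118, the U8 RNA needed for processing of the large-subunit ribosomal RNAs, was the fourth called gene at 6M, on very few counts. Its counts were 1, 1 and 3 in the BALB/c mice and 17, 11 and 18 in the NOD.H-2b mice. The summed counts gave a NOD.H-2b to BALB/c ratio of 8.82 with an exact 95% counting interval of 3.52 to 28.4, which covers counting error only. At 2M the counts were 1, 2 and 2 against 16, 7 and 10 (ratio 5.72, interval 2.22 to 18.8), but the gene had too few counts for the test there. At 4M they were 6, 9 and 18 against 24, 13 and 20, the mice overlapped, and the ratio was 1.63 (1.04 to 2.58). The test at 6M gave an FDR of 0.00300, and that of the average over ages 3.91e-05. Snord118 passed the low-count filter only through NOD.H-2b, the strain in which it was high: the filter's level was reached by 0 of 3 BALB/c mice and 3 of 3 NOD.H-2b mice at 6M, and by 1 of 9 and 7 of 9 over all ages. Snord118 has its own promoter and no host gene. Snord13, another box C/D RNA without a host gene, which pairs with the small-subunit ribosomal RNA, had between 3 and 15 counts in each mouse and did not pass on average over ages (log2 0.43, SE 0.34, FDR 0.283).

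**Figure D3:**
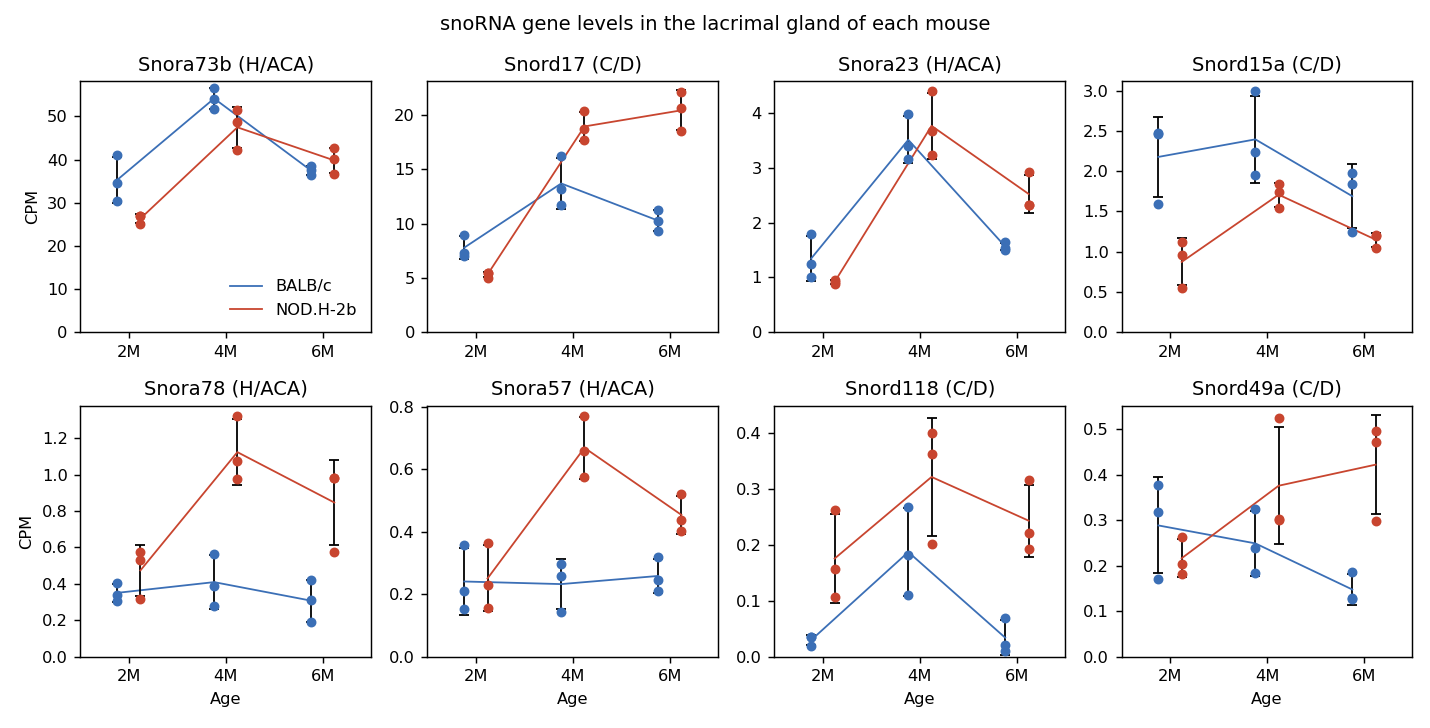
Points give the CPM (y axis, from 0) of 8 snoRNA genes in each mouse at 2M, 4M and 6M (x axis), with lines through the group means and bars of 1 SD (n = 3). Snord17 is lower in NOD.H-2b at 2M (5.02 to 5.48 CPM) and higher at 6M (18.5 to 22.1 CPM), while Snora78 is above BALB/c in all NOD.H-2b mice at 4M and 6M.

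Averaged over the ages, 3 of 40 tested members were called, Snord118, Snora78 and Snord34, all higher in NOD.H-2b, where 17.6% of all genes were called higher. Snord34, which was named after its values were seen, is a box C/D gene in an intron of the ribosomal protein gene Rpl13a, and its levels in BALB/c against NOD.H-2b were 0.128 ± 0.0236 and 0.204 ± 0.0626 CPM (SD, n = 3) at 2M, 0.101 ± 0.0106 and 0.196 ± 0.0272 at 4M, and 0.0804 ± 0.0228 and 0.226 ± 0.0609 at 6M. Its average log2 difference was 1.04 (SE 0.25, FDR 0.00121), and it fell to 0.99 without NOD.H-2b 2M replicate 2 and 0.98 without NOD.H-2b 6M replicate 1. It too passed the filter only through NOD.H-2b, with 0 of 9 BALB/c mice and 8 of 9 NOD.H-2b mice at the filter's level. At any fold change 9 members passed the FDR, 7 higher and 2 lower (Snord15a and Snora73b), out of 40 tested, where 65.5% of all genes passed. Of the higher ones, Snord49a did not pass in 10 of 23 alternatives (FDR up to 0.0981). Snord32a, named after its values were seen, did not pass in 14 of 23 (FDR up to 0.0965). No member was called at all 3 ages, which was possible only for members tested at each age. Of the called genes, Snord118 was not tested at 2M, and Snord34 was tested at 4M alone.

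The change of the strain difference from 2M to 6M was tested directly as a strain-by-age term, and 3 of 40 tested members were called, all with a more positive difference at 6M, where 3.6% of all genes were called in that direction. Snord17 had the largest change relative to its error, a log2 change of 1.54 (SE 0.17, FDR 0.000139), and its difference turned from lower to higher in NOD.H-2b. Snora23 changed by 1.24 (SE 0.28, FDR 0.00815), which was 0.94 without BALB/c 2M replicate 1 (FDR 0.0308). Snord49a changed by 1.95 (SE 0.58, FDR 0.0291), a call that 8 of the 18 fits leaving out 1 mouse and the fit without a low-count filter lost, with FDR values up to 0.0812. Those mice were BALB/c 2M replicates 2 and 3, NOD.H-2b 2M replicates 2 and 3, BALB/c 6M replicates 1 and 2, and NOD.H-2b 6M replicates 1 and 3. Snora73b changed by 0.51 (SE 0.13, FDR 0.0144), below 2-fold, and did not pass without BALB/c 2M replicate 1 (0.34, FDR 0.0635). From 2M to 4M the same term, on the same 40 tested members, called Snord17 alone. The share of all genes called by that term is not given here, so this count is not read further.

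The classes are compared here by their counts and medians, with no test between them. At 2M, 18 of 22 tested box C/D genes had negative log2 differences and the median was -0.14, against 4 of 10 and 0.10 in the H/ACA genes. At 4M the medians were 0.34 (20 box C/D genes) and 0.40 (11 H/ACA genes), and at 6M 0.23 (16) and 0.29 (10). The medians of all tested genes lay between 0.00 and 0.01 at the 3 ages. For all 35 and all 17 members without the count filter, the medians were -0.16 and -0.11 at 2M, 0.35 and 0.39 at 4M, and 0.25 and 0.45 at 6M. The sign at 2M in the H/ACA genes thus depended on the filter.

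**Figure D4:**
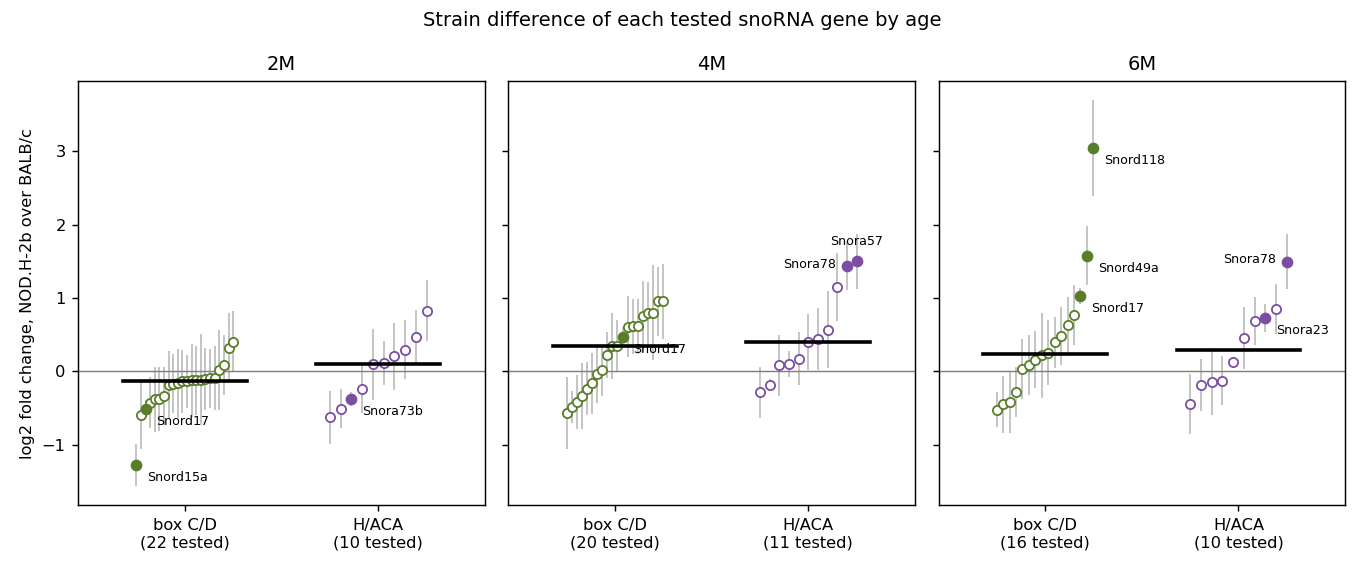
Each point is the log2 fold change of NOD.H-2b over BALB/c (y axis) of 1 tested member, with a bar of 1 SE, by class and age. Filled points had an FDR under 0.05 and black lines are class medians, which are -0.14 and 0.10 at 2M and 0.23 and 0.29 at 6M.

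Without overlap between the 3 mice of each strain, 1 tested member was higher and 7 were lower in NOD.H-2b at 2M (of 32), against 25.3% and 28.0% of all genes. The counts were 9 higher and 3 lower of 31 at 4M (all genes 28.4% and 27.0%), and 8 higher and 1 lower of 26 at 6M (31.3% and 33.4%). The lower genes at 2M included Snora21, Snora30 and Snord72 of the most abundant members, none of which passed the test (log2 -0.63, FDR 0.199; -0.24, FDR 0.599; -0.43, FDR 0.363). The remaining genes chosen for abundance, Snora31, Snord104, Snord37 and Snord58b, had log2 strain differences between -0.28 and 0.63 at the 3 ages, with FDR values from 0.200 to 0.894.

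From 2M to 4M in BALB/c, 1 of 29 tested members was called, Snora23, where 2.07% of all genes were called higher. Its levels rose from 1.80, 1.24 and 1.01 CPM to 3.15, 3.39 and 3.98 CPM, with no overlap. The rise was 2.62-fold (log2 1.39, SE 0.22, FDR 0.00162). Snord17 rose from 7.78 ± 1.03 to 13.7 ± 2.31 CPM (SD, n = 3) (log2 0.82, SE 0.13, FDR 0.00407). Snora73b rose from 35.3 ± 5.35 to 54.2 ± 2.40 CPM (log2 0.62, SE 0.10, FDR 0.00971). At any fold change these 3 of 29 passed the FDR, where 11.1% of all genes did. The other 26 tested members did not pass, and the median of the 19 box C/D genes was -0.22 against 0.07 in the 10 H/ACA genes.

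From 2M to 4M in NOD.H-2b, 4 of 36 tested members were called higher and none lower, against 5.97% and 0.625% of all genes. Snora23 rose from 0.953, 0.883 and 0.912 CPM to 3.22, 3.66 and 4.41 CPM, a 4.09-fold change (log2 2.03, SE 0.19, FDR 0.00176). Snord17 rose from 5.31 ± 0.254 to 18.9 ± 1.36 CPM (SD, n = 3), a 3.57-fold change (log2 1.84, SE 0.10, FDR 0.000218), and in both genes every 4M mouse was above every 2M mouse. Snora78 (log2 1.24, SE 0.31, FDR 0.0304) and Snora57 (1.40, SE 0.38, FDR 0.0389) were called on fewer counts. Each was lost when a single mouse was left out: for Snora78 any of the 6 (FDR 0.0506 to 0.102), and for Snora57 any but 2M replicate 2 (0.0627 to 0.131).

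Snora73b rose in NOD.H-2b from 26.3 ± 1.00 to 47.5 ± 4.73 CPM (SD, n = 3) between 2M and 4M (log2 0.85, SE 0.08, FDR 0.00214), and Snord15a from 0.872 ± 0.293 to 1.71 ± 0.150 CPM (0.97, SE 0.28, FDR 0.0478). The Snord15a result was lost when any of the 6 mice was left out (FDR 0.0791 to 0.117). The median over tested members was 0.79 in the 11 H/ACA genes and 0.17 in the 25 box C/D genes, beside 0.01 over all genes.

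From 4M to 6M few genes of any kind were called, which does not show that few changed. In BALB/c, Snora23 was 1 of 24 tested members called, lower at 6M, where 0.018% of all genes were called lower. It fell from 3.15, 3.39 and 3.98 CPM to 1.50, 1.64 and 1.54 CPM with no overlap (2.27-fold, log2 -1.18, SE 0.17, FDR 0.0220). Without any 1 of the BALB/c mice other than 6M replicate 3 its FDR was 0.0595 to 0.128, with log2 values of -1.25 to -1.08. Snora73b fell to 37.4 ± 1.02 CPM (log2 -0.54, SE 0.06, FDR 0.00535). In NOD.H-2b edgeR called 0 of 36 tested members, beside 0.00555% of all genes called in either direction; 3 members had an unadjusted p under 0.05 (Snora23, Snord15a and Snora73b, all negative), and DESeq2 called 0.

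Host genes were set beside the members inside them. Of the 52 members, 47 lay within a gene on the same strand and 45 of them in introns alone, and those without a host were Snord13, Snord118, Snora17, Snora57 and Snord104. Snx5, the host of Snord17, was higher in NOD.H-2b at every age, with log2 differences of 0.45 (FDR 0.000272), 0.78 (FDR 0.000413) and 1.03 (FDR 3.15e-05) at 2M, 4M and 6M. Snord17 was lower at 2M and reached the value of its host at 6M, 1.03. From 2M to 4M Snx5 was at 0.01 in BALB/c (FDR 0.914) and 0.37 in NOD.H-2b (FDR 0.0662), where Snord17 was at 0.82 and 1.84.

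Ipo7, the host of Snora23, was lower in NOD.H-2b at each age (log2 -0.26, -0.28 and -0.33, FDR 0.00110, 0.00713 and 0.00565), while Snora23 was at -0.51, 0.10 and 0.73. Between 2M and 4M the BALB/c value of Ipo7 was -0.09 and its NOD.H-2b value -0.07, where Snora23 was at 1.39 and 2.03. Rps3, the host of Snord15a, was at -0.05 at 2M (FDR 0.449), where Snord15a was at -1.28. For Snora73b, Rcc1 and Snhg3 were at 0.24 and -0.18 at 2M, neither past the FDR.

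Snhg9, the host of Snora78, was at 0.95, 1.02 and 0.89 at the 3 ages, without passing the FDR (0.151, 0.115 and 0.107). Averaged over the ages it did pass (log2 0.93, SE 0.28, FDR 0.00711), where Snora78 was at 1.11. On the opposite strand, Snora78 lies in an intron of the ribosomal protein gene Rps2, which was higher in NOD.H-2b by log2 1.54, 1.50 and 1.37 (FDR 2.77e-09, 1.81e-06 and 4.60e-07). The strand setting of the counting is not given in the sources used here, so reads of the pair may not be told apart, and the part of Rps2 in the Snora78 values was not tested. Of the 52 members, 8 lay within a gene of the opposite strand, among them Snora57 (in Lbhd1, at -0.02 at 4M) and Snora23 (1600010M07Rik, 59 counts in all). Snora73b (42969 counts) and Snora73a (87 counts) overlapped an exon of such a gene, Gm17300, which had 7 counts in all. Snord4a (141 counts) and Snord42a (75 counts) overlapped an exon of Tlcd1, which had 4145 counts in all. The bearing of these counts on the strand setting was not tested.

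Across all pairs with both genes tested, Pearson's r between the log2 difference of the member and of its host was 0.11 at 2M (28 pairs), 0.47 at 4M (27 pairs) and 0.62 at 6M (22 pairs), a description over genes that share libraries and in part hosts. The only pair called together in any of the 9 comparisons was Snord17 with Snx5 at 6M. Of the 3 members within 2410006H16Rik, Snord49a was called at 6M (log2 1.57), while Snord49b was at 0.76 (SE 0.40, FDR 0.136) and Snord65 at 0.22 (SE 0.58, FDR 0.773). The differences among the 3 were not tested.

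**Figure D5:**
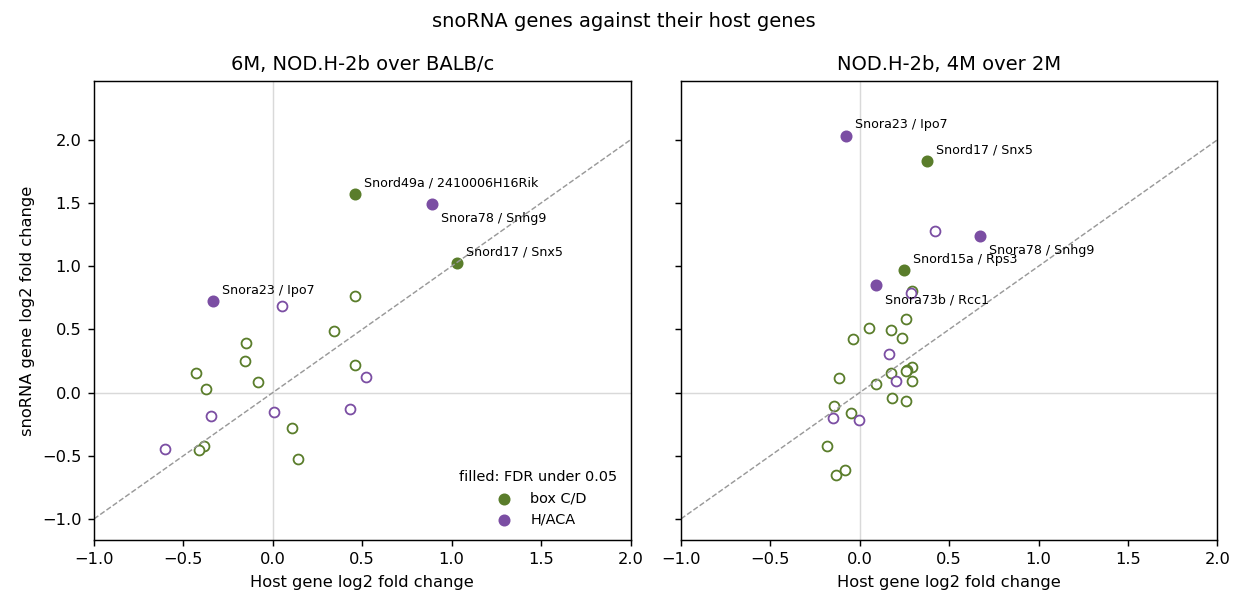
Each point is 1 member, with the log2 fold change of its host gene on the x axis and its own on the y axis, for the strains at 6M and for 2M to 4M in NOD.H-2b; the dashed line marks equal change and filled points had a member FDR under 0.05. Snora23 lies far above the line in the right panel (2.03 against -0.07 for Ipo7), and Snord17 lies on it in the left panel (1.03 for both).

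Other short RNAs were counted in the same way, at any fold change past the FDR. The strain-by-age term was passed by 1 of 9 tested short RNAs of other kinds, 3 of 5 small Cajal body RNAs and 0 of 3 spliceosomal RNAs, where 16.1% of all genes passed. For 2M to 4M in BALB/c the counts were 2 higher and 2 lower of 9, 1 higher of 5, and 0 of 3 (all genes 11.1%). In NOD.H-2b they were 3 of 9, 3 of 5 and 2 of 3, all higher (all genes 15.8%). Rn7sk, the 7SK RNA that controls transcription elongation, was at 2062, 2070 and 1869 CPM in the 2M BALB/c mice and 1725, 1600 and 1901 CPM in the 2M NOD.H-2b mice. Between 2M and 4M it rose in both strains (log2 0.66, FDR 8.48e-05 in BALB/c, and 0.88, FDR 0.00283 in NOD.H-2b), and its strain-by-age term was 0.42 (FDR 0.0377). Of 5 small Cajal body RNAs tested, the 3 that passed were Scarna2, Scarna6 and Scarna13. Their strain-by-age terms were 0.54 (FDR 0.00169), 0.58 (FDR 0.00685) and 1.10 (FDR 0.0198). Malat1, a long nuclear RNA, had a term of -0.11 (FDR 0.535). The part of a shared shift of short RNAs in the snoRNA results was not tested.

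Genes for the proteins that bind snoRNAs were counted past the FDR at any fold change, where 39.8% of all genes passed at 2M, 42.6% at 4M, 54.4% at 6M and 65.5% on average over the ages. None of the 5 box C/D core protein genes tested passed at 2M, at 4M or on average, and at 6M Nop56 alone did (log2 0.23, FDR 0.0373), with Fbl at 0.12 (FDR 0.377). Of the 4 H/ACA core protein genes, Gar1 was lower at 2M (-0.35, FDR 0.0462) and 4M (-0.40, FDR 0.0317) and Nop10 at 6M (-0.53, FDR 0.000436), while Dkc1 was at 0.15 at 6M (FDR 0.248). On average over the ages both Gar1 and Nop10 were lower. Of 34 ribosome biogenesis genes, 1 was higher and 7 lower at 2M, 3 and 3 at 4M, 3 and 3 at 6M, and 8 and 10 on average. Of 16 assembly factors, 2 were higher and 5 lower at 2M, 2 and 2 at 4M, 1 and 3 at 6M, and 5 and 6 on average. Nolc1, a nucleolar chaperone of snoRNPs, and Dbr1, the enzyme that opens intron lariats, were lower at each age. For strain by age, Nop10 (log2 -0.42, FDR 0.0140) and Parn were more negative at 6M, the assembly factors Tgs1, Wrap53 and Znhit6 were more positive, and no box C/D core or ribosome biogenesis gene passed.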

How the data were processed

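Whole LG of 18 male mice had been profiled by RNA-seq after depletion of ribosomal RNA, as paired reads on a NextSeq500. The authors deposited raw counts per gene, made with cutadapt (trimming), FastQC (quality), STAR (alignment to GRCm38) and HTSeq (counting). The file of normalised values (DESeq2) was not used. Versions, strand setting, annotation release and the treatment of multiply aligned reads are not given in the sources used here, and reads of short RNAs in total-RNA libraries depend on the last of these.

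From these counts, groups taken from the labels were compared with edgeR 4.0.16 (limma 3.58.1, R 4.3.3): TMM scaling, the filterByExpr filter, robust quasi-likelihood fits and Benjamini-Hochberg adjustment over all genes tested. Strains at 1 age and ages within 1 strain were fitted on the 6 mice compared, and the average and the strain-by-age term on all 18. Genes past an FDR of 0.05 with a 2-fold change were called. Steps were tested on simulated counts. Alternatives were DESeq2 1.42.0 (size factors or Wald test), upper-quartile scaling, no filter, at least 10 counts in every mouse, any fold change, a replicate block, all 18 mice in each fit, and leaving out each mouse. Host genes, coordinates and sequences came from GENCODE M21 (GRCm38), where a host is the gene on the same strand whose span contains the snoRNA. Libraries held 49480781 to 103936830 counts. Intervals are exact and cover counting error only. Replicates of a group differed by more than sampling noise.

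The members and lists were chosen with earlier results of these data known. Genes were named by rule: the 6 highest summed counts per class, members called for age or strain by age or at all ages, those nearest the count line, and the U3, U8, Snord13, Snord14, U17 and imprinted genes. Others are said to be named after their values were seen.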

Additional observations from a re-analysis of the deposited data

Results flagged for a closer look

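For 4 of 40 tested snoRNA genes the strain effect differed between 2M and 6M, where 16.1% of all genes passed. The test was edgeR's strain-by-age term over all 18 mice, with adjusted p under 0.05. The log2 change in the NOD.H-2b to BALB/c difference was 1.54 for Snord17, 1.24 for Snora23, 0.51 for Snora73b and 1.95 for Snord49a. Snord49a did not pass in 9 of 23 alternatives, nor Snora73b in 1 of 24. Groups of 3 mice were too small for the check of single far-lying samples. No explanation was tested.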

How the results depend on the processing

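Depth limited most of these results: 12 of the 52 snoRNA genes had too few counts for any test over all 18 mice, and most others had few counts in a mouse, so a member that was not called was not shown to be stable. Of 35 gene-level results past the FDR, 26 stayed past it in every alternative in which the gene was tested, and 0 reversed. Some genes with few counts were not tested in every alternative, which is not counted as a loss here. At 6M, Snora78, Snord49a and Snord118 were tested in 12 alternatives, whereas Snord17 was tested in 13. The causes of the changes below were not tested. Requiring at least 10 counts in every mouse left fewer genes and called 1 at 4M, 1 at 6M and 0 on average over ages. Taking any fold change gave 3 at 2M and 9 on average, and for the BALB/c mice 3 from 2M to 4M and 2 from 4M to 6M. Without the filter 2 were called at 2M and 2 from 2M to 4M in BALB/c. In a single fit of all 18 mice 2 were called at 2M, 5 at 4M and 2 from 2M to 4M in BALB/c. The strain-by-age term from 2M to 4M called 1. The other scalings and the DESeq2 Wald test gave counts within 1.5 times. Shares of all genes called in these alternatives are not given here, so the counts are not read as results about the members.

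Leaving out 1 mouse gave 1 to 2 calls at 2M, 2 to 3 at 4M, 3 to 6 at 6M, 2 to 3 on average, 2 to 3 for strain by age, 1 to 2 (BALB/c) and 2 to 3 (NOD.H-2b) from 2M to 4M, and 0 to 1 (BALB/c) and 0 (NOD.H-2b) from 4M to 6M. At 2M, the count of 2 came without BALB/c replicate 2 or 3 or NOD.H-2b replicate 2, and that of 2 in BALB/c from 2M to 4M without 4M replicate 1. Class medians were followed in the 14 box C/D and 10 H/ACA genes tested at all ages. Their log2 values without 1 mouse ran from -0.37 to -0.20 at 2M, 0.04 to 0.18 at 4M and 0.037 to 0.39 at 6M for box C/D, and from -0.070 to 0.27, 0.11 to 0.32 and 0.15 to 0.40 for H/ACA. The H/ACA median at 2M turned negative without BALB/c replicate 3 or NOD.H-2b replicate 2. The reference values were -0.25, 0.12 and 0.20, and 0.10, 0.29 and 0.29. With at least 10 counts in every mouse the medians at 2M were -0.14 (box C/D) and -0.23 (H/ACA), and at 6M 0.047 (H/ACA). Over all members with at least 1 count they were -0.16 at 2M and 0.35 at 4M (box C/D), and -0.11 at 2M and 0.45 at 6M (H/ACA).

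Replicate numbers are shared between groups, but same-numbered mice did not deviate together (correlations from -0.30 to 0.30, median 0.01, and 7 of 18 mice correlated best with their own number), so the numbers were not read as pairs. With a replicate block, 2 members instead of 4 were called from 2M to 4M in NOD.H-2b, and the counts of the other 8 comparisons were those of the fit without it.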
